A study of Rattus norvegicus with 48 samples.

Results

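The cluster of miR-322, miR-503, miR-351 and miR-450a is a run of miRNA genes on the rat X chromosome, and its mature products were followed here across 4 segments of the nephron. Its members were taken by name, as the miRNAs of the deposited table whose names start with rno-miR-322, rno-miR-351, rno-miR-450a, rno-miR-503 or rno-miR-542. The rule found 3 of the 188 miRNAs in the table, rno-miR-351-5p, rno-miR-450a-5p and rno-miR-322-5p, each from the 5p arm of its hairpin. Of the 14 arms named for miR-322, miR-424, miR-503, miR-351, miR-542, miR-450a and miR-450b, no other is among the 188. Small RNA had been sequenced from glomeruli (the filtering units, 2 libraries), and from proximal tubules, thick ascending limbs of Henle's loop and collecting ducts (3 libraries each). All came from 3 untreated male Sprague-Dawley rats aged 6 months, carrying no transgene or other manipulation in the labels, and each library had 4 runs, 1 per flow cell. Glomeruli were cut by laser from histochemically stained frozen sections and tubules from sections stained with fluorescent antibodies, so that the stain and the segment cannot be told apart between glomerulus and tubules. By their labels the glomerulus libraries come from rat 1 and rat 3, and another glomerulus library labelled rat 3, which the submitters marked as removed, is not analysed here.

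A mature miRNA recognises its target mRNAs mainly through its seed, bases 2 to 8 from the 5′ end, so miRNAs of 1 seed form a family with overlapping targets. Neighbouring miRNA hairpins are commonly cut from a shared primary transcript, after which processing and stability can set the level of each product apart. In mouse and human cells miR-322 (called miR-424 in humans) and miR-503 belong to the extended miR-15/16 family and are known for repressing cell-cycle genes such as cyclins and Cdc25a. miR-351 carries the seed of miR-125a and miR-125b, and miR-450a a seed outside both families.

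RefSeq places 6 hairpins of the cluster within 5309 bases on the minus strand of chromosome X in assembly GRCr8. In the direction of transcription they are Mir322 (137726147 to 137726241), Mir503, Mir351 (137725116 to 137725196), Mir542, Mir450b-1 and Mir450a1 (137720933 to 137721023). The hairpins of miR-322 and miR-351 lie 950 bases apart, and those of miR-351 and miR-450a 4092 bases apart. The first 3 hairpins lie inside the span of an annotated long non-coding RNA gene, LOC102550366, and the other 3 do not. The mature sequences of the members are shown from RefSeq (GRCr8), 5′ to 3′, with the seed in capitals, each beside miRNAs that carry the same seed.
rno-miR-351-5p: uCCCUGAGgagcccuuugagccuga
rno-miR-125a-5p: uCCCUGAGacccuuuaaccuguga
rno-miR-125b-5p: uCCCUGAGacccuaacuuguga
rno-miR-450a-5p: uUUUGCGAuguguuccuaaugu
rno-miR-450b-5p: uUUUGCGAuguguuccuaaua
rno-miR-322-5p: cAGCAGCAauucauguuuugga
rno-miR-16-5p: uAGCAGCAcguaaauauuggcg
rno-miR-497-5p: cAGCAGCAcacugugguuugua
miR-351-5p and miR-125a-5p share 8 leading bases and, compared without gaps, differ at most positions after the seed. Their later bases match better when shifted, so the likeness is not confined to the seed. Full-length reads of the 2 can still be told apart. miR-450a-5p and miR-450b-5p, which is not among the 188, share 20 leading bases, and how the authors' counting divided reads that stop before the difference is not given in the sources used here. The value of miR-450a-5p is therefore uncertain in that respect. The seed of miR-351-5p was found in 3 of the 693 mature rat miRNAs of the RefSeq table, that of miR-322-5p in 5 and that of miR-450a-5p in 2.

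Values are read counts that the authors normalized by the trimmed mean of M-values, averaged here over a library's 4 runs. From the spacing of low values, the 188 miRNAs held an estimated 147996 to 1296994 reads per library, the fewest in the glomerulus library of rat 3. The labels of glomerulus and proximal tubule were checked against markers. No marker of the thick ascending limb or of the collecting duct was used, so these 2 labels were not checked. miR-192-5p, a miRNA of the proximal tubule, averaged 22626 ± 2930 in proximal tubules (SD, n = 3), against 1088 ± 462 in glomeruli (n = 2). In the thick ascending limb it averaged 3265 ± 1057 and in collecting ducts 1791 ± 531 (n = 3 each). The 4 measured members of the miR-200 family and miR-141, which mark epithelium, summed to 36.1 to 128 in glomeruli and to 412 to 1595 in the tubule libraries.

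miR-351-5p was the most abundant member in every library and was higher in the glomerulus than in each tubule segment. In glomeruli it had values of 1999 in rat 1 and 1117 in rat 3. In proximal tubules it had 229, 421 and 232 in rats 1, 2 and 3. In the thick ascending limb it had 139, 194 and 214, and in collecting ducts 137, 279 and 295, in the same order of rats. Both glomerulus libraries lay above all 9 tubule libraries, and the lower of them was still well above the highest tubule value. Such a separation was not particular to this miRNA, as miR-143-3p, miR-23b-3p and miR-126a-5p showed it too. Its share among the 188 miRNAs was not counted. By rank among the 188 miRNAs, miR-351-5p was 13th and 10th in the glomerulus libraries and between 36th and 60th in the tubule libraries. The values rested on 9722 and 2107 reads in the glomerulus libraries and on 199 to 2191 reads in the tubule libraries.

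The mean of miR-351-5p was 1558 ± 624 in glomeruli (SD, n = 2), 294 ± 110.2 in proximal tubules, 182 ± 38.7 in the thick ascending limb and 237 ± 86.7 in collecting ducts (n = 3 each). On the log2(value + 1) scale the glomerulus differed from the mean of the tubule segments by 2.90 ± 0.50 (SE), with a 95% interval of 1.92 to 3.88 and a limma adjusted p of 1.4e-07. Against single segments the log2 difference was 2.57 ± 0.57 for the glomerulus over the proximal tubule (limma adjusted p = 0.000115), 3.24 ± 0.57 over the thick ascending limb (7.2e-07) and 2.90 ± 0.57 over the collecting duct (9.3e-06). These small p-values rest on a variance shared between miRNAs of like abundance. Without the variance trend the limma adjusted p was 0.0076 against the tubule mean. Against the segments it was then 0.027, 0.014 and 0.016 in the same order. The difference was of the same sign in both rats with a glomerulus library. In rat 1 the glomerulus value was 8.73 times that of the proximal tubule, 14.3 times that of the thick ascending limb and 14.5 times that of the collecting duct. In rat 3 these ratios were 4.81, 5.21 and 3.78, so on these values the size of the difference varied between rats. All values summed to 165055 for the rat 1 glomerulus library and to 77457 for that of rat 3. As a percentage of such sums, glomerular miR-351-5p had 1.21% in rat 1 and 1.44% in rat 3. Against the proximal tubule (0.154% and 0.110%) the excess by share was larger in rat 3. Against collecting duct (0.0748% and 0.158%) and thick limb (0.0973% and 0.125%) it was smaller. Without the glomerulus library of rat 1 the log2 difference from the tubule mean was 2.19, and without that of rat 3 it was 3.61, and the call held both times.

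**Figure D1:**
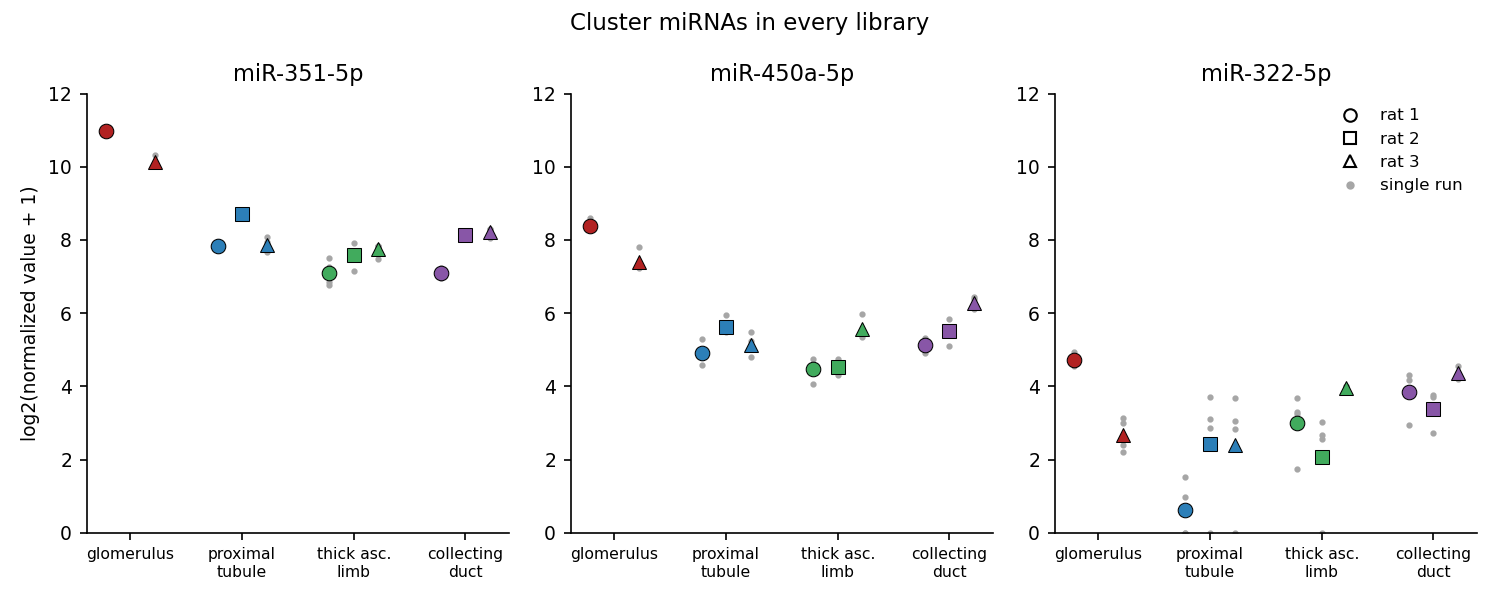
Each panel plots log2(normalized value + 1) of a cluster miRNA by segment; large symbols are libraries (shape gives the rat) and grey dots the runs of that library. miR-351-5p and miR-450a-5p sit higher in both glomerulus libraries than in all 9 tubule libraries, while the miR-322-5p libraries of glomerulus and tubules overlap.

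miR-450a-5p, from the last hairpin of the cluster, was also higher in the glomerulus than in each tubule segment, at a lower level than miR-351-5p. It had values of 334 and 170.5 in the glomeruli of rats 1 and 3. In rats 1, 2 and 3 it had 29.8, 49.0 and 34.9 in proximal tubules, 21.4, 22.3 and 47.5 in the thick ascending limb, and 34.2, 45.6 and 76.9 in collecting ducts. Again both glomerulus libraries lay above every tubule library, as they did for some miRNAs outside the cluster. It ranked 40th and 34th in glomeruli and between 69th and 95th in the tubule libraries. Its reads numbered 1579 and 323 in the glomerulus libraries, against 32 to 339 in the tubule libraries.

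The mean of miR-450a-5p was 252 ± 115 in glomeruli (SD, n = 2), 37.9 ± 9.93 in proximal tubules, 30.4 ± 14.8 in the thick ascending limb and 52.2 ± 22.1 in collecting ducts (n = 3 each). The log2 difference of the glomerulus from the tubule mean was 2.64 ± 0.66 (limma adjusted p = 0.00082), with a 95% interval of 1.34 to 3.94. It was 2.65 ± 0.76 over the proximal tubule (limma adjusted p = 0.0046), 3.02 ± 0.76 over the thick ascending limb (0.0011) and 2.24 ± 0.76 over the collecting duct (0.024). Without the variance trend the limma adjusted p was 0.015 against the tubule mean. Against the segments it was then 0.030, 0.026 and 0.059 in the same order, the last no longer a call. In rat 1 the glomerulus value was 11.2, 15.6 and 9.76 times those of proximal tubule, thick limb and collecting duct. In rat 3 the ratios to the same segments were 4.89, 3.59 and 2.22. Without the glomerulus library of rat 1 the log2 difference from the tubule mean was 1.74 and no longer passed (limma adjusted p = 0.052), and without that of rat 3 it was 3.54. The calls against the proximal tubule and the collecting duct were also lost without the glomerulus library of rat 1 (limma adjusted p = 0.070 and 0.18). Leaving out the rat 3 library of proximal tubule ended the call against that segment (limma adjusted p = 0.054). The call against the collecting duct ended when the rat 2 library of proximal tubule (0.065) or the collecting duct library of rat 1 (0.15) or rat 2 (0.053) was left out. With a single glomerulus library left, that library is assumed to vary like the others.

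miR-322-5p, from the first hairpin, was the least abundant member and showed no glomerular excess that passed the test. It had values of 25.6 and 5.66 in the glomeruli of rats 1 and 3. In proximal tubules it had 0.713, 6.48 and 6.36, in the thick ascending limb 7.88, 4.33 and 14.6, and in collecting ducts 14.3, 9.92 and 19.6. The glomerulus and tubule libraries overlapped, and the highest and one of the lower values both came from glomeruli. Reads were few, at 127 and 11 in the glomerulus libraries and 3 to 109 in the tubule libraries. Between runs of the same library the log2 values of miR-322-5p had an SD of 0.75 (mean over libraries), while miR-351-5p had 0.15 and miR-450a-5p 0.24.

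The mean of miR-322-5p was 15.6 ± 14.1 in glomeruli (SD, n = 2), 4.52 ± 3.29 in proximal tubules, 8.93 ± 5.21 in the thick ascending limb and 14.6 ± 4.85 in collecting ducts (n = 3 each). The log2 difference of the glomerulus from the tubule mean was 0.67 ± 0.98 (limma adjusted p = 0.70), with a 95% interval of −1.26 to 2.60. In rat 1 the glomerulus value was 35.9, 3.25 and 1.80 times those of proximal tubule, thick limb and collecting duct, while in rat 3 the ratios were 0.890, 0.388 and 0.289. On these values the glomerulus was thus above every tubule segment in rat 1 and below each of them in rat 3. The rat 3 order depended on the scaling. As a percentage of a library's summed values, miR-322-5p of the rat 3 glomerulus (0.0073%) exceeded that of its proximal tubule (0.0030%). It stayed below its collecting duct (0.0105%) and its thick limb (0.0085%). Without the glomerulus library of rat 1 the log2 difference from the tubule mean turned to −0.89, with no call. The proximal tubule libraries lay below all 3 collecting duct libraries, a separation not counted over all miRNAs. The log2 difference was −2.05 ± 0.98, with an unadjusted limma p of 0.037 and a limma adjusted p of 0.18.

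Of the 3 members, 2 were higher in the glomerulus than in the mean of the tubule segments, where 19.7% of the 188 miRNAs were called in either direction. The count was also 2 of 3 against the proximal tubule (17.6% of all miRNAs called), the thick ascending limb (11.2%) and the collecting duct (14.9%). It fell to 1, miR-351-5p, in all 4 comparisons when limma weighted the libraries by their spread, which ended the calls of miR-450a-5p (adjusted p = 0.092 against the tubule mean and 0.082, 0.052 and 0.20 against the segments in the same order). It also fell to 1 in all but the comparison with the thick ascending limb when the glomerulus library of rat 1 was left out. The limma F-test for any difference among the segments called the same 2, against 24.5% of all miRNAs, with adjusted p of 1.1e-06 for miR-351-5p, 0.0041 for miR-450a-5p and 0.32 for miR-322-5p. Against the tubule mean, 9 of the 188 miRNAs were higher in the glomerulus and 28 were lower, a split that became 25 and 31 with median-of-ratios scaling, 30 and 28 with equal library totals and 27 and 19 after quantile normalization. The median log2 difference was 2.64 over the 3 members and −0.56 over all miRNAs. The median over all miRNAs was −0.20, −0.08 and 0.05 with the same 3 scalings. Without the glomerulus library of rat 1 the median was −1.47, with 3 miRNAs higher and 69 lower. Leaving out that of rat 3 instead gave a median of 0.25, with 11 higher and 15 lower. With these scalings the glomerular log2 difference from the tubule mean was 3.39, 3.51 and 3.76 for miR-351-5p and 3.13, 3.25 and 3.16 for miR-450a-5p, all called. For miR-322-5p it was 1.07, 1.22 and 1.16, not called, though its difference from the proximal tubule alone passed after quantile normalization (2.42, limma adjusted p = 0.029).

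An exact permutation test over the libraries, which does not borrow variance between miRNAs, gave p = 0.0182 for miR-351-5p and for miR-450a-5p (two-sided, 55 arrangements), the smallest p this design allows. For miR-322-5p it gave p = 0.38 by exact permutation. With labels moved only within a rat the exact permutation p was 0.0625 for miR-351-5p and miR-450a-5p, the smallest that 16 arrangements allow, and a value below 0.05 could not be reached.

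Among the tubule segments no member differed by the test. The proximal tubule and the thick ascending limb differed in 7.98% of the 188 miRNAs, the proximal tubule and the collecting duct in 10.1%, and the thick ascending limb and the collecting duct in 2.13%, and in each of these 0 of 3 members were called by limma. These shares moved with single libraries, and the counts of 15, 19 and 4 miRNAs ranged over 5 to 37, 10 to 40 and 0 to 26 when a library was left out. At an unadjusted p under 0.05, 1 of the 9 member comparisons passed, that of miR-322-5p given above. The proximal tubule libraries of miR-351-5p lay above those of the thick ascending limb without overlap. How many of the 188 miRNAs did so was not counted. The log2 difference was 0.67 (95% interval −0.31 to 1.64, limma adjusted p = 0.50), and 0.05 to 0.79 under other settings. For the proximal tubule over the collecting duct it was 0.33 (−0.65 to 1.30), and for the thick ascending limb over the collecting duct −0.34 (−1.32 to 0.64). In the same order the log2 differences of miR-450a-5p were 0.37 (−0.92 to 1.67), −0.41 (−1.70 to 0.89) and −0.78 (−2.08 to 0.52). By these differences the order for miR-351-5p was glomerulus, proximal tubule, collecting duct and thick ascending limb. For miR-450a-5p it was glomerulus, collecting duct, proximal tubule and thick ascending limb. In both only the step down from the glomerulus passed the test. Neither order among the tubule segments held in every rat or under every scaling. The intervals leave room for differences between tubule segments of more than 1 log2 unit in at least 1 direction.

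**Figure D2:**
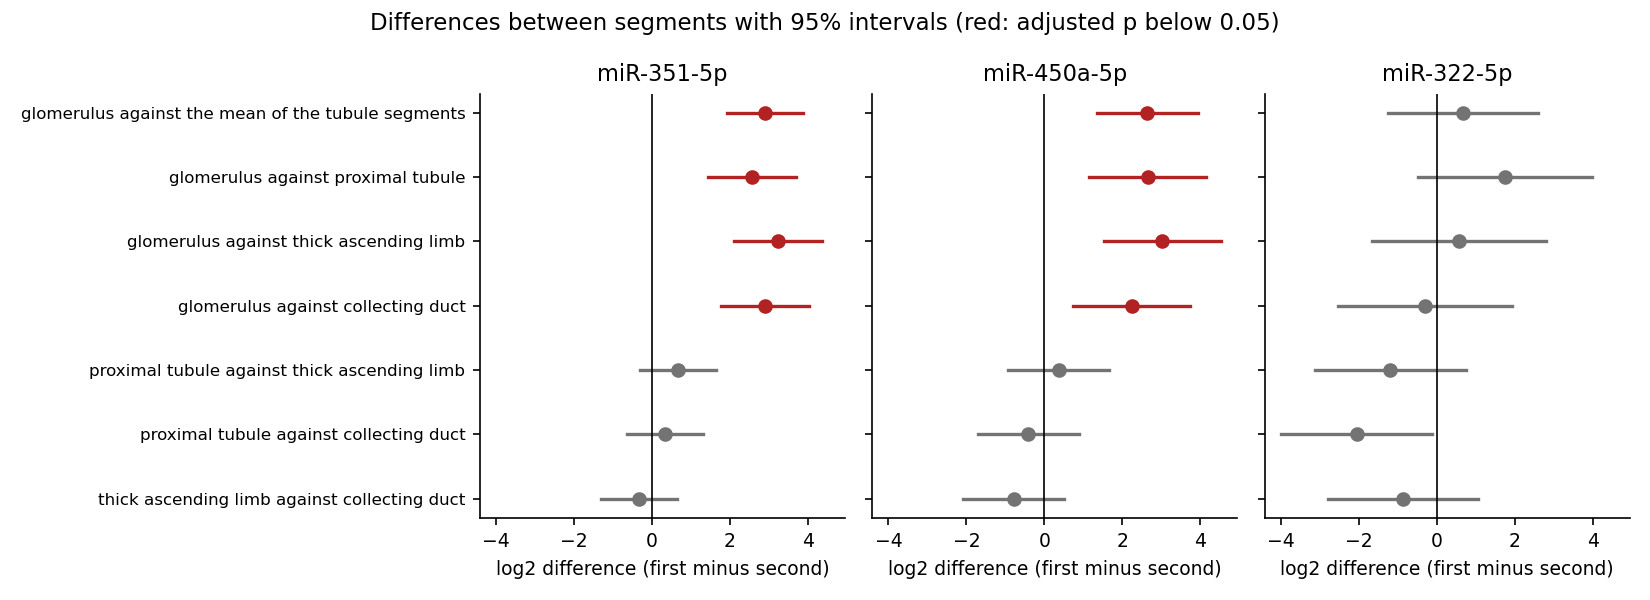
Points are limma log2 differences, the segment named first minus the second, for each cluster miRNA, and lines are 95% intervals; red marks an adjusted p below 0.05. All 4 glomerulus comparisons of miR-351-5p and miR-450a-5p lie above 0, and no interval of a tubule comparison of these 2 miRNAs excludes 0.

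Within a library the levels of miR-351-5p and miR-450a-5p kept a similar ratio in glomerulus and tubules, while the ratio to miR-322-5p varied more. The value of miR-351-5p was 5.99 and 6.55 times that of miR-450a-5p in the glomerulus libraries, against 3.84 to 8.67 times in the tubule libraries. The glomerular ratios lay inside the tubule range, and the log2 ratios differed by 0.05 (exact permutation p = 0.91, two-sided). The ratio of miR-351-5p to miR-322-5p was 78.0 and 197 in glomeruli, against 9.64 to 321 in the tubule libraries, and the log2 ratios differed by 1.95 (exact permutation p = 0.13). For miR-450a-5p over miR-322-5p the ratio was 13.0 and 30.1 in glomeruli, against 2.40 to 41.8 in the tubule libraries, with a log2 difference of 1.90 (exact permutation p = 0.055). A difference in behaviour between miR-322-5p and the other members thus did not pass a test, and in each case the proximal tubule library of rat 1, where miR-322-5p had 3 reads, gave the highest tubule ratio. Together the members made up 1.43% and 1.67% of the summed values of the glomerulus libraries, against 0.101% to 0.274% in the tubule libraries (exact permutation p = 0.0182, the smallest possible). Most of this share was miR-351-5p, so it is not a separate test of the cluster. Together with 2 shares of seed groups, 6 within-library measures were tested, all chosen after their values had been seen. Benjamini-Hochberg adjustment of the exact permutation p over the 6 gave 0.91 for miR-351-5p over miR-450a-5p, 0.19 for miR-351-5p over miR-322-5p, 0.11 for miR-450a-5p over miR-322-5p and 0.055 for the members' share.

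**Figure D3:**
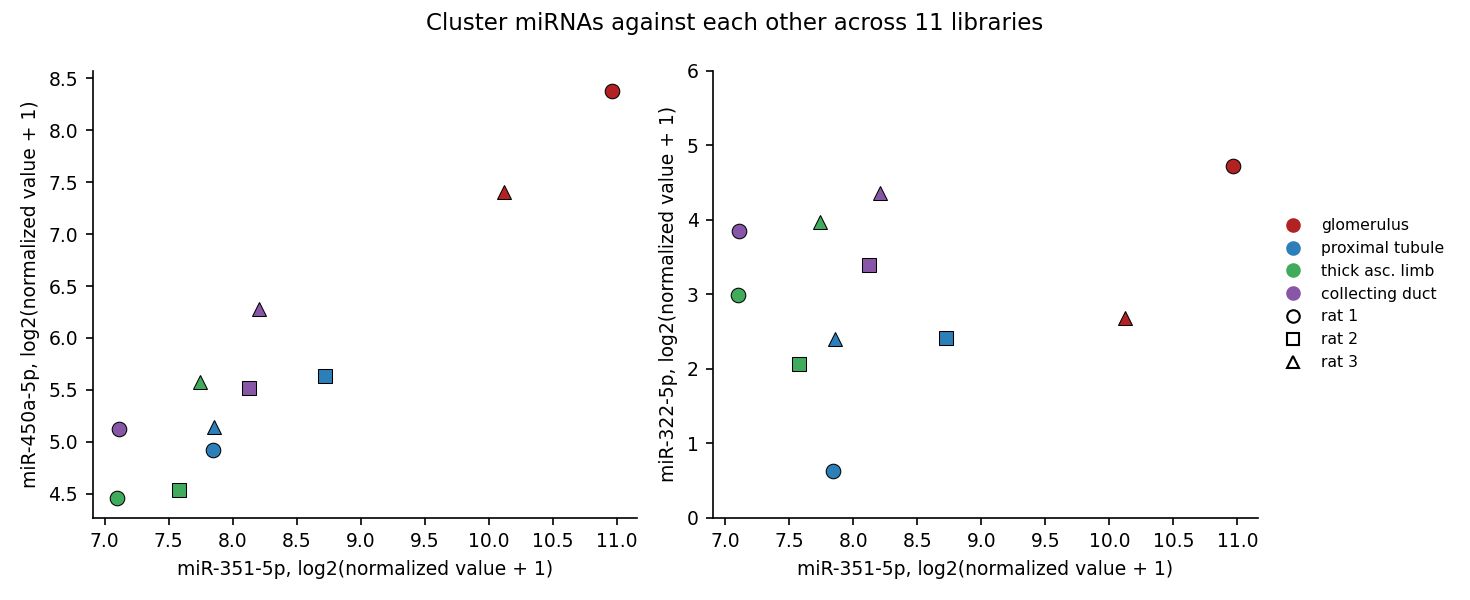
Each point is a library, with miR-351-5p on the horizontal axis and miR-450a-5p (left) or miR-322-5p (right) on the vertical axis, all as log2(normalized value + 1); colour gives the segment and shape the rat. miR-450a-5p climbs with miR-351-5p over the 11 libraries, and miR-322-5p shows no such order.

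Among the 3 miRNAs of its seed, miR-351-5p had a larger share in both glomerulus libraries than in any tubule library. miR-351-5p made up 36.7% and 51.5% of the summed values of the 3 miRNAs in the glomeruli of rats 1 and 3. Its share was 9.43%, 14.4% and 6.98% in the proximal tubules of rats 1, 2 and 3, 4.71%, 8.10% and 6.86% in the thick ascending limb, and 3.95%, 5.39% and 6.69% in collecting ducts. Counted in reads, the exact binomial 95% interval of the share was 36.1% to 37.2% and 49.3% to 52.4% in the glomerulus libraries, and the highest tubule library, the proximal tubule of rat 2, reached 13.6% to 14.7%. Such intervals treat reads as independent and hold counting error alone. PCR copies of a molecule are not independent, so the intervals can be too narrow. They leave out the difference between rats, and the 2 glomerulus intervals do not overlap each other. The glomerular and tubule shares did not overlap (exact permutation p = 0.0182, the smallest possible, and 0.055 after adjustment over the 6 measures).

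The other miRNAs of this seed, which are known for roles in development and in blood and vessel cells, showed no glomerular excess that passed the test. miR-125a-5p had values of 3255 and 981 in the glomerulus libraries of rats 1 and 3, against means of 2395 ± 464 in proximal tubules, 2463 ± 385 in the thick ascending limb and 3868 ± 727 in collecting ducts (SD, n = 3 each). Its log2 difference of the glomerulus from the tubule mean was −0.67 ± 0.45 (limma adjusted p = 0.32). miR-125b-5p had 186 and 70.3 in glomeruli, against 202 ± 18.7, 179 ± 24.6 and 250 ± 63.0 in the tubule segments in the same order, and a log2 difference of −0.80 ± 0.53 (limma adjusted p = 0.31). Neither of the 2 was called in any of the 7 comparisons. The summed values of the 3 miRNAs were 5440 and 2168 in the glomerulus libraries and 2392 to 5174 in the tubule libraries, so the pool as a whole overlapped between glomerulus and tubules.

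**Figure D4:**
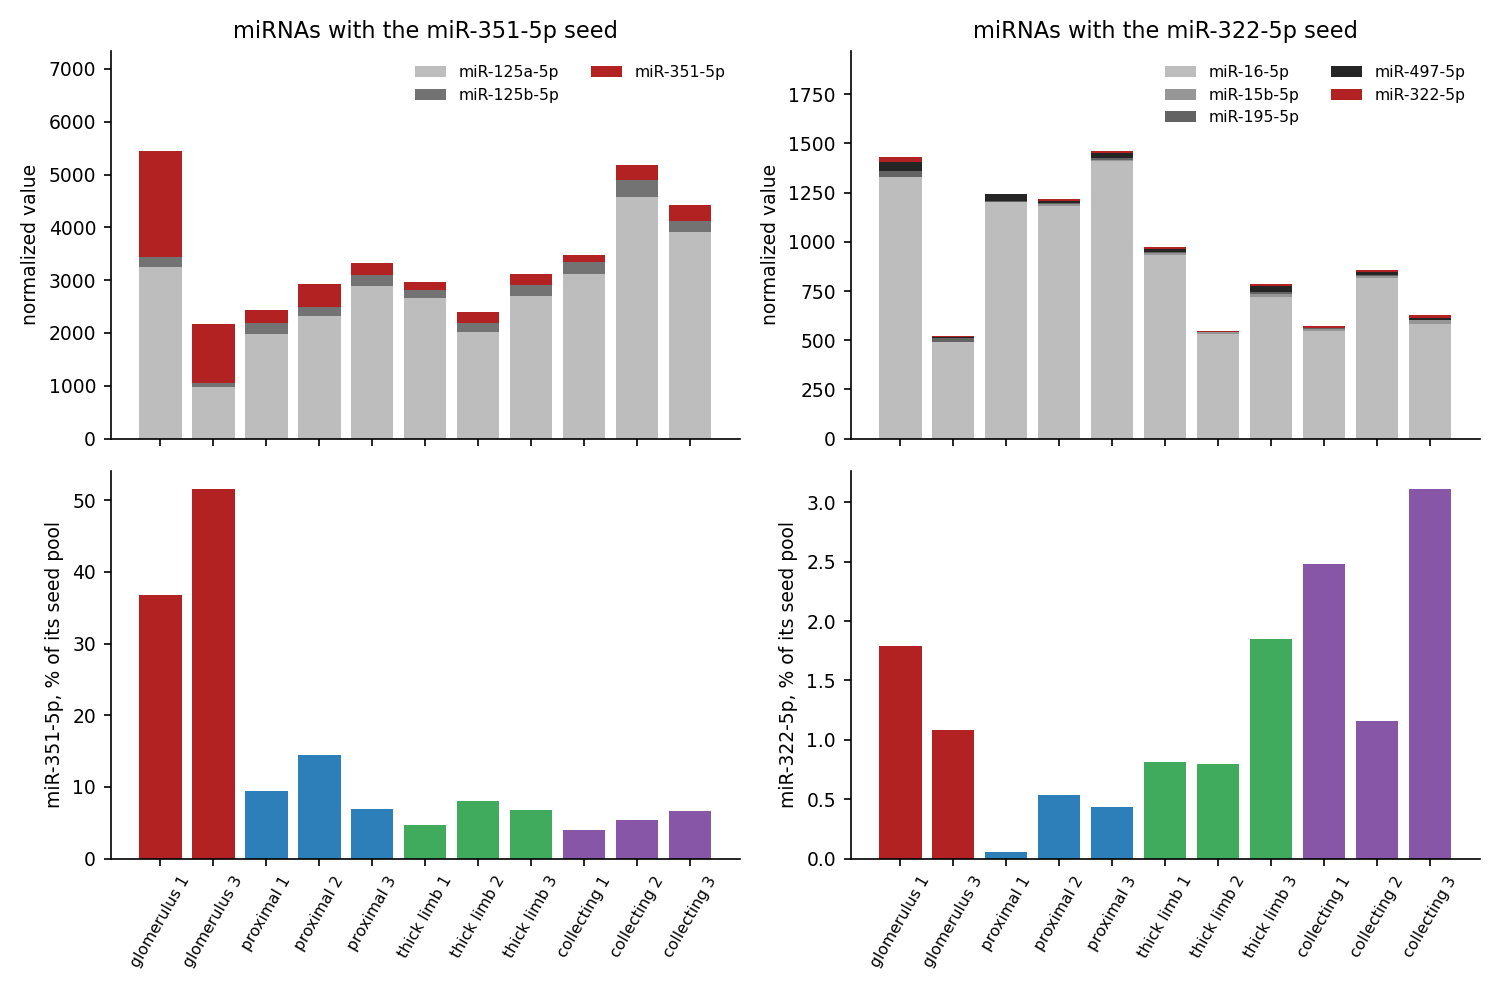
The upper panels stack the normalized values of the miRNAs that carry the seed of miR-351-5p (left) and of miR-322-5p (right) in each library, named by segment and rat, and the lower panels give the share of the cluster member in percent. miR-351-5p holds 36.7% and 51.5% of its pool in the glomerulus libraries and at most 14.4% in a tubule library, whereas miR-322-5p holds at most 3.11% of its pool in any library.

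miR-322-5p was a minor part of its own seed group in every segment. Its share of the summed values of miR-16-5p, miR-15b-5p, miR-195-5p, miR-497-5p and miR-322-5p was 1.79% and 1.08% in glomeruli. It was 0.0574%, 0.533% and 0.435% in proximal tubules, 0.811%, 0.794% and 1.85% in the thick ascending limb, and 2.48%, 1.16% and 3.11% in collecting ducts. Glomerular and tubule shares overlapped (exact permutation p = 0.53, and 0.63 after adjustment over the 6 measures). Most of the group was miR-16-5p, a cell-cycle repressor of the same family, at 912 ± 593 in glomeruli (SD, n = 2), 1266 ± 128 in proximal tubules, 728 ± 201 in the thick ascending limb and 650.2 ± 145 in collecting ducts (n = 3 each), with a log2 difference of −0.08 ± 0.46 between glomerulus and tubule mean (limma adjusted p = 0.92). miR-195-5p, which is encoded beside miR-497, had 28.6 and 20.5 in the glomeruli of rats 1 and 3, against 0 to 12.7 in the tubule libraries, at a log2 difference of 2.43 ± 1.03 (limma adjusted p = 0.083). miR-497-5p itself had 45.6 and 4.22 in glomeruli, against 0 to 32.8 in the tubule libraries (log2 difference 0.35 ± 0.95, limma adjusted p = 0.84). miR-15b-5p was at 0 in both glomerulus libraries, where 3 reads would have given 0.723 in rat 1 and 1.83 in rat 3, against 0 to 19.2 in the tubule libraries. Of these 4 relatives, limma called 1 in 1 of the 7 comparisons, miR-15b-5p lower in the glomerulus than in the thick ascending limb (adjusted p = 0.048).

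The miRNAs whose levels ran most like those of miR-351-5p over the 11 libraries were, after miR-450a-5p (Pearson r of log2 values 0.95), miR-143-3p (0.90), miR-23b-3p (0.87), miR-126a-3p (0.75) and miR-146a-5p (0.74). For miR-450a-5p they were miR-351-5p, miR-143-3p (0.94), miR-23b-3p (0.86), miR-24-3p (0.85) and miR-126a-5p (0.82). The points share libraries and sequencing depth, and the 2 glomerulus libraries stand apart from the others, so that these values are descriptions. Over the 9 tubule libraries alone, r between miR-351-5p and miR-450a-5p was 0.68, while for miR-351-5p it was 0.60 with miR-143-3p, 0.16 with miR-23b-3p and −0.02 with miR-126a-3p. Thus miR-450a-5p and miR-143-3p ran with miR-351-5p among tubules too, and the likeness to miR-126a-3p came with the glomerulus libraries. The levels of miR-322-5p ran most like those of miR-27a-3p (0.89), miR-27b-3p (0.77), miR-25-3p (0.76), miR-30a-5p (0.75) and miR-23a-3p (0.72). Its r was 0.28 with miR-351-5p, which placed 62nd among the other miRNAs, and 0.53 with miR-450a-5p, which placed 25th.

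Of 4 marker miRNAs of endothelium and of mesangium and smooth muscle, 2 were called higher in the glomerulus than in the tubule mean. Over all 188 miRNAs, 19.7% were called in this comparison in either direction, and 9 were higher. The endothelial miRNAs miR-126a-3p and miR-126a-5p, both measured, summed to 4299 to 6290 in glomeruli and to 1158 to 3170 in the tubule libraries, and both were called higher in the glomerulus than in the tubule mean (limma adjusted p = 0.027 and 0.0054, miR-126a-5p at a log2 difference of 1.57 ± 0.45). miR-143-3p and miR-145-5p, of smooth muscle, pericytes and mesangium, summed to 10382 to 16388 in glomeruli and to 4781 to 8080 in the tubule libraries, with log2 differences of 0.95 ± 0.46 and 1.61 ± 0.78 that did not pass (limma adjusted p = 0.13 for each). Against the collecting duct alone, where miR-351-5p and miR-450a-5p were called, neither miR-126a-3p nor miR-126a-5p was (log2 differences 1.11 ± 0.60 and 0.99 ± 0.52, limma adjusted p = 0.21 and 0.19). None of these 4 was at 0 in a library. Of 6 blood cell miRNAs only miR-142-5p was measured, at 15.3 and 31.4 in glomeruli and 3.78 to 25.3 in the tubule libraries. Of 3 miRNAs of skeletal and heart muscle none was measured. The part of these cell types in the difference of miR-351-5p and miR-450a-5p was not tested, and in such bulk samples more cells of a type and more RNA per cell cannot be told apart.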

How the data were processed

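Small RNA libraries had been made with a TruSeq kit from laser-captured segments, per the labels' protocols. What the authors deposited is a normalized signal: read counts scaled by TMM, with low-count miRNAs filtered out, as their table's name says. The submitters' processing notes name Bowtie 1.0.0, Bowtie2 2.2.5 and Partek 6.0, and the genome build rn6; how reads were assigned to near-identical miRNAs is not given in the sources used here. The values were used as deposited, for 44 runs of 11 libraries. In each run the low values lay mostly on whole multiples of a step, taken as what 1 read is worth. Up to 30 reads, 88.3% to 99.0% of a run's values came out whole (tolerance 0.03 reads), as did 132 of 132 member values; the others were fractions, so no count test was run.

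Tests used the mean of log2(value + 1) per library, and n counts libraries. limma 3.58.1 in R 4.3.3 fitted segment and rat to all 11 libraries, with a variance trend and Benjamini-Hochberg adjustment over 188 miRNAs for each comparison, called at an adjusted p below 0.05; tests were two-sided. The fit leaves 5 residual degrees of freedom and gave miRNAs of like abundance 1 shared variance, on which the small p-values rest. The script was tested on simulated data whose noise was independent and of equal size in all libraries. That test therefore cannot speak to glomerulus libraries that vary more than the others. The rat entered as a replicate block because segments of a rat come from the same animal; the correlation of deviations around segment means was 0.08 in the median of 15 same-rat library pairs (10 above 0) and −0.07 in that of 30 pairs from different rats. Exact permutation tests used Python 3.11.15 with scipy 1.17.1. Sequences and hairpin positions came from RefSeq (GRCr8); the deposited table holds no coordinates. Named were all members, miRNAs that share a member's seed, lists of cell-type markers, and the 5 miRNAs most correlated with each member. The members and lists were chosen with earlier results of these data known. Alternatives covered the pseudocount (0.5 and 5), a filter at a mean of 10, the block, the variance trend, 3 scalings, array weights, each flow cell alone and each library left out.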

Additional observations from a re-analysis of the deposited data

How the results depend on the processing

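The 4 glomerulus comparisons of miR-351-5p kept their direction and their call in all 13 other settings and in all 11 fits without a library. Without the replicate block the log2 difference of the glomerulus from the tubule mean was 2.73 for miR-351-5p, 2.65 for miR-450a-5p and 0.81 for miR-322-5p, and no call of a member changed. Over all members and comparisons, 263 of 282 values under other settings and 221 of 231 without a library kept their direction and their side of the threshold. For the rest the cause was not tested. The glomerulus calls of miR-450a-5p were lost with array weights, at log2 differences of 2.70 from the tubule mean, 2.72 from the proximal tubule, 2.99 from the thick ascending limb and 2.38 from the collecting duct (limma adjusted p = 0.092, 0.082, 0.052 and 0.20). The weights were 0.248 for both glomerulus libraries. On flow cell D alone it lost the calls against the proximal tubule (2.49, limma adjusted p = 0.058) and the collecting duct (2.195, adjusted p = 0.095), and without a variance trend that against the collecting duct (2.24, 0.059). miR-322-5p gained calls after quantile normalization, at 2.42 for the glomerulus over the proximal tubule and −2.12 for the proximal tubule over the collecting duct (limma adjusted p = 0.029 and 0.031). Differences with no call turned sign as follows. For miR-322-5p, glomerulus over collecting duct became 0.23 with median-of-ratios scaling, 0.46 with equal totals, 0.30 after quantile normalization and 0.039 on flow cell C, and proximal tubule over thick ascending limb became 0.03 on flow cell A. For miR-450a-5p, proximal tubule over thick ascending limb became −0.089 with median-of-ratios scaling and −0.12 after quantile normalization. For miR-351-5p, thick ascending limb over collecting duct became 0.10, 0.20 and 0.45 with the 3 scalings. Without single libraries the log2 difference from the tubule mean ranged over 2.19 to 3.61 for miR-351-5p, 1.74 to 3.54 for miR-450a-5p and −0.89 to 2.24 for miR-322-5p. In the same fits miR-450a-5p ranged over 1.75 to 3.55 from the proximal tubule and 1.34 to 3.15 from the collecting duct, and miR-322-5p over −1.00005 to 2.13 from the thick ascending limb and −1.86 to 1.27 from the collecting duct. The number of the 188 miRNAs called, and with it the background of the members' calls, moved by more than 1.5 times under some settings. It ranged over 12 to 58 against 37 for the glomerulus and the tubule mean, 15 to 51 against 33 for the proximal tubule, 13 to 44 against 21 for the thick ascending limb and 16 to 48 against 28 for the collecting duct. It ranged over 5 to 43 against 15 for the proximal tubule and thick ascending limb, 15 to 42 against 19 for the proximal tubule and collecting duct, 1 to 26 against 4 for the thick ascending limb and collecting duct, and 28 to 70 against 46 by the F-test. Without single libraries it ranged over 25 to 72 for the glomerulus and the tubule mean, 20 to 73 for the proximal tubule, 15 to 44 for the thick ascending limb and 20 to 67 for the collecting duct. Between tubule segments it ranged over 5 to 37 for the proximal tubule and thick ascending limb, where 10 of 11 fits moved by more than 1.5 times, 10 to 40 for the proximal tubule and collecting duct, 0 to 26 for the thick ascending limb and collecting duct, and by the F-test over 33 to 85. Fits of the tubule libraries alone, added after the data had been seen, are among these and called no member. Precision was limited by the 2 glomerulus libraries and, for miR-322-5p, by 3 to 127 reads per library.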

Other observations

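Repeat runs of a library agreed closely for the abundant members and the rats differed more. For miR-351-5p the SD of log2 values was 0.15 between runs of a library (mean over libraries). Between rats it was 0.60 in glomeruli (n = 2), 0.50 in proximal tubules, 0.33 in the thick ascending limb and 0.61 in collecting ducts (n = 3 each). For miR-450a-5p it was 0.24 between runs, and between rats 0.69 in glomeruli, 0.36 in proximal tubules, 0.63 in the thick ascending limb and 0.59 in collecting ducts. In glomeruli, the median SD between rats was 0.81 among 65 abundant miRNAs (means from 100 upward), so that miR-351-5p differed less between the glomerulus libraries than the median abundant miRNA did. All values summed to 165055 in the glomerulus library of rat 1 and to 77457 in that of rat 3. The glomerular median thus holds a difference in scale between these libraries as well. In proximal tubules that median was 0.28, in the thick ascending limb 0.34 and in collecting ducts 0.34, and there miR-351-5p lay above or close to it.

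The summed values of the members were 2358 and 1293 in the glomeruli of rats 1 and 3. In rats 1, 2 and 3 they were 259, 477 and 273 in proximal tubules, 169, 220.3 and 276 in the thick ascending limb and 186, 334 and 392 in collecting ducts. miR-351-5p made up most of each sum.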
